A study of Homo sapiens with 6 samples.

Results

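The genes described here are 8 genes of plasminogen activation and of the start of coagulation, out of the 42902 genes of the count table. They were chosen by name from knowledge of these systems, with earlier results of these data known. They are the plasminogen activators PLAU and PLAT, the urokinase receptor PLAUR, the protease inhibitor SERPINE2, tissue factor (F3), its inhibitor TFPI, the related inhibitor TFPI2, and thrombomodulin (THBD). They were measured by RNA sequencing of PANC-1, a human line from a pancreatic ductal carcinoma, in 3 libraries that carried a control hairpin (shNC; genotype WT and treatment shControl in the labels) and 3 that carried a short hairpin against RRM2 (shRRM2 as genotype and as treatment). The labels give no time, no hairpin sequence and no number of clones or cultures, so the p-values cover only the spread among these 6 libraries, part of which may be technical, and effects of the hairpin and of RRM2 loss cannot be told apart. RRM2, the small subunit of ribonucleotide reductase, stood at 204, 192 and 203 CPM in shNC and at 40.5, 40.6 and 39.5 CPM in shRRM2. CPM are counts scaled to a library total of 1000000.

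Urokinase (PLAU) and tissue-type plasminogen activator (PLAT) are serine proteases that cut plasminogen to plasmin, which dissolves fibrin and degrades matrix proteins. Urokinase works at the cell surface on its receptor PLAUR, and serine protease inhibitors of the serpin family block the activators. Tissue factor, a transmembrane protein, binds factor VIIa and starts coagulation, while TFPI blocks that complex and thrombomodulin turns thrombin towards activation of the anticoagulant protein C. Pancreatic carcinoma is known for tissue factor on its cells and for thrombosis in patients.

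Of the 8 genes, 7 passed the filter on low counts, and TFPI did not. PLAU, PLAT, SERPINE2, F3, TFPI2 and THBD rose in shRRM2, and PLAUR fell, in edgeR's quasi-likelihood test with Benjamini-Hochberg adjustment over 15866 genes and a threshold of 0.05. This response was broad in the series: 26.0% of the tested genes were called higher and 26.1% lower. The CPM of the groups did not overlap for the same 7 genes, 6 higher and 1 lower, beside 29.2% of tested genes that were higher without overlap and 28.6% that were lower. The median log2 fold change over the 7 was 0.91, against −0.01 over all tested genes.

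**Figure D1:**
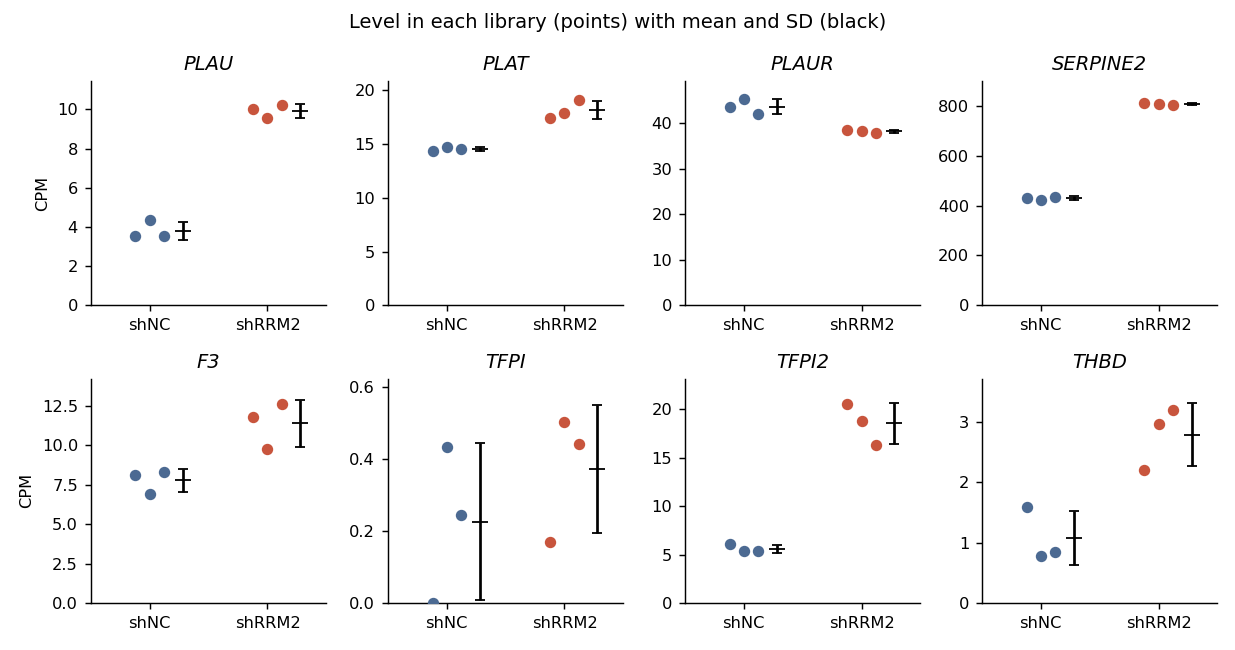
CPM of each of the 8 genes in each library (points, 3 per group), with the mean and SD in black; each panel has its own axis from 0. The shRRM2 points lie above the shNC points for PLAU, PLAT, SERPINE2, F3, TFPI2 and THBD, below them for PLAUR, and among them for TFPI, whose highest value is 0.503 CPM.

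The libraries held 16606947 to 23300433 counts, and 1 CPM therefore rests on 16.5 to 23.1 counts. No library was a near copy of another, since the chi-square of a pair divided by its degrees of freedom was 2.20 to 3.69 within groups and 26.8 to 31.8 across groups. The epithelial keratins KRT8, KRT18 and KRT7 stood at 1080, 786 and 706 CPM in shNC, while KRT19, a ductal keratin, had 0 to 6 counts per library and EPCAM 3 to 16. Of 8 epithelial markers, 7 passed the filter, of which 6 rose and KRT7 fell, beside 26.0% and 26.1% of all tested genes. KRT7 changed by −0.07 (adjusted p = 0.0442), and its groups overlapped.

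The 2 activators differed in the size of their change. PLAU (Gene ID 5328, chromosome 10, 73908832 to 73917494, GRCh38) was covered by 62, 100 and 58 counts in the 3 shNC libraries and by 177, 190 and 185 counts in shRRM2. These are 3.54, 4.33 and 3.52 CPM against 10.001, 9.55 and 10.2 CPM, and the groups were well apart. PLAU rose by 1.37 on the log2 scale (SE 0.150, 95% interval 1.07 to 1.68, adjusted p = 2.06e-09), a 2.59-fold change, and 2.97% of the tested genes had a larger rise. PLAT (Gene ID 5327, chromosome 8, 42174718 to 42207565) was at 14.3, 14.8 and 14.6 CPM in shNC and at 17.5, 17.9 and 19.1 CPM in shRRM2. Its libraries also separated, but the rise was 0.32 (SE 0.0961, 95% interval 0.12 to 0.51, adjusted p = 0.00586), to 125% of control. The 95% intervals of the 2 changes did not overlap.

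The receptor moved the other way from its ligand. PLAUR (Gene ID 5329, chromosome 19, 43646095 to 43670169), the lipid-anchored protein that holds urokinase at the membrane, was counted 764, 1045 and 694 times in shNC libraries and 681, 761 and 687 times in shRRM2 libraries. After scaling these were 43.6, 45.3 and 42.1 CPM against 38.5, 38.3 and 37.9 CPM, with every shRRM2 library below every shNC library. PLAUR fell by 0.19 in log2 (SE 0.0622, 95% interval −0.32 to −0.07, adjusted p = 0.00898), to 87.4% of the control level. Without shNC replicate 2, the highest of the 6, the call was lost. There the log2 fold change was −0.17 (SE 0.0697) and the adjusted p = 0.0519.

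The inhibitor SERPINE2 was the most abundant of the 8 and changed with little spread. SERPINE2 (Gene ID 5270, chromosome 2, 223975045 to 224039286), also called protease nexin-1, is a secreted serpin that inhibits urokinase, tissue-type activator, plasmin and thrombin. It received 7589, 9734 and 7172 counts in shNC libraries and 14421, 16110 and 14569 in shRRM2 libraries, or 433, 422 and 435 CPM against 815, 810 and 804 CPM. The SD was 7.22 CPM in shNC and 5.55 CPM in shRRM2, where counting alone gives 4.80 and 6.61 CPM, and the groups were far apart. SERPINE2 rose by 0.91 (SE 0.0286, 95% interval 0.85 to 0.97, adjusted p = 3.10e-23), a 1.88-fold change.

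Tissue factor also rose. F3 (Gene ID 2152, chromosome 1, 94529173 to 94541759) was at 8.10, 6.93 and 8.31 CPM in shNC and at 11.8, 9.75 and 12.6 CPM in shRRM2. The groups did not overlap, with replicate 2 the lowest of each. F3 rose by 0.56 (SE 0.132, 95% interval 0.29 to 0.83, adjusted p = 0.000642), or 1.47-fold.

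TFPI2 had the largest estimated rise of the 7 tested members. TFPI2 (Gene ID 7980, chromosome 7, 93885396 to 93890753) encodes a secreted Kunitz-type inhibitor that sits in the matrix and blocks plasmin more strongly than the tissue factor complex. Its libraries gave 106, 124 and 88 counts (shNC) and 363, 375 and 295 counts (shRRM2), or 6.05, 5.37 and 5.34 CPM against 20.5, 18.9 and 16.3 CPM. Each shRRM2 library was above each shNC library, with more spread in shRRM2 (SD 2.13 CPM, where counting alone gives 1.00) than in shNC (SD 0.401). TFPI2 rose by 1.73 (SE 0.124, 95% interval 1.48 to 1.99, adjusted p = 1.12e-13), a 3.32-fold change, and 1.55% of the tested genes had a larger rise.

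TFPI itself (Gene ID 7035, chromosome 2, 187464230 to 187554435), the main inhibitor of the tissue factor complex, was barely detected. The shNC libraries held 0, 10 and 4 counts and the shRRM2 libraries 3, 10 and 8, which makes 35 in all, and the groups overlapped. The 0 in shNC replicate 1 allows up to 0.171 CPM, taking 3 counts as the limit that a count of 0 leaves, for counting error alone. Fitted without the filter, TFPI had a log2 fold change of 0.65 with a 95% interval of −0.84 to 2.13 (adjusted p = 0.549), so that no change was detectable at this depth.

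Thrombomodulin was low in both groups. THBD (Gene ID 7056, chromosome 20, 23045633 to 23049672), the thrombin receptor best known from endothelium, was seen 28, 18 and 14 times in shNC libraries and 39, 59 and 58 times in shRRM2 libraries, or at 1.598, 0.780 and 0.849 CPM against 2.20, 2.97 and 3.20 CPM. The groups did not overlap, and the closest libraries were replicate 1 of each. THBD rose by 1.39 (SE 0.301, 95% interval 0.78 to 2.01, adjusted p = 0.00021), or 2.63-fold, the widest interval of the 7.

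THBD, PLAT and TFPI are also endothelial genes, and PLAUR and F3 are expressed by monocytes, so markers of such cells were read in the same libraries. Of 8 endothelial markers, 4 passed the filter and 3 rose (CDH5, VWF and ESAM), and the summed CPM of the list was 67.6 to 73.8 in shNC and 93.1 to 96.5 in shRRM2. KDR was at 0 in all 6 libraries, and PECAM1 had 0 to 6 counts per library. EGFL7 was at 43.3 and 44.4 CPM (0.03, adjusted p = 0.669), and CLDN5, below the filter, had 2, 3 and 4 counts in shNC libraries against 0, 0 and 2 in shRRM2 libraries. Of 7 monocyte and macrophage markers, 2 passed and rose (CD68 and CSF1R), with a summed CPM of 27.1 to 28.2 against 84.2 to 88.7, most of it CD68 (25.96 and 82.5 CPM). AIF1 was at 0, PTPRC had 0 to 3 counts and LYZ 0 to 1. CD14, below the filter, went the other way, with 8, 11 and 14 counts in shNC libraries against 6, 7 and 4 in shRRM2 libraries. Of 8 fibroblast markers, COL1A1, PDGFRB and FAP passed and rose, with a summed CPM of 27.9 to 30.03 against 61.8 to 66.4, and DCN had 0 to 4 counts. Of 5 platelet markers, PF4, PPBP and GP9 were at 0, GP1BA fell from 4.92 to 2.88 CPM (adjusted p = 0.00157), and ITGA2B was at 2.36 and 2.67 CPM, with a summed CPM of 6.28 to 8.55 against 5.02 to 5.88. Of 5 hepatocyte genes, ALB and SERPINA1 were at 0, and the summed CPM was 0.520 to 0.913 against 0.552 to 1.06. Beside these marker counts, 26.0% of all tested genes were called higher and 26.1% lower. The part of these cell types' RNA in the members' changes was not tested. In bulk RNA, a different number of cells of a type and a different amount of RNA per cell cannot be told apart.

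Levels of different genes were compared per kilobase (kb) of the longest protein-coding transcript of each gene in GENCODE 29. In shNC the order was SERPINE2 at 167 ± 2.81 (SD, n = 3) CPM per kb, PLAUR at 27.1 ± 0.985, PLAT at 5.38 ± 0.0830, F3 at 3.40 ± 0.325, TFPI2 at 2.28 ± 0.164, PLAU at 1.43 ± 0.175, THBD at 0.262 ± 0.110 and TFPI at 0.0580 ± 0.0559. No 2 of the 8 genes overlapped in their shNC libraries. In shRRM2, TFPI2 moved up to the third place, at 7.59 ± 0.873 (SD, n = 3), beside PLAT at 6.71 ± 0.311, and the libraries of these 2 genes overlapped. The other 7 genes kept their order among themselves, with SERPINE2 at 315 ± 2.16 and PLAU at 3.73 ± 0.126. On this scale both activators stood below PLAUR and SERPINE2 in both groups. Which transcripts of a gene were counted is not known, so the lengths are approximate.

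**Figure D2:**
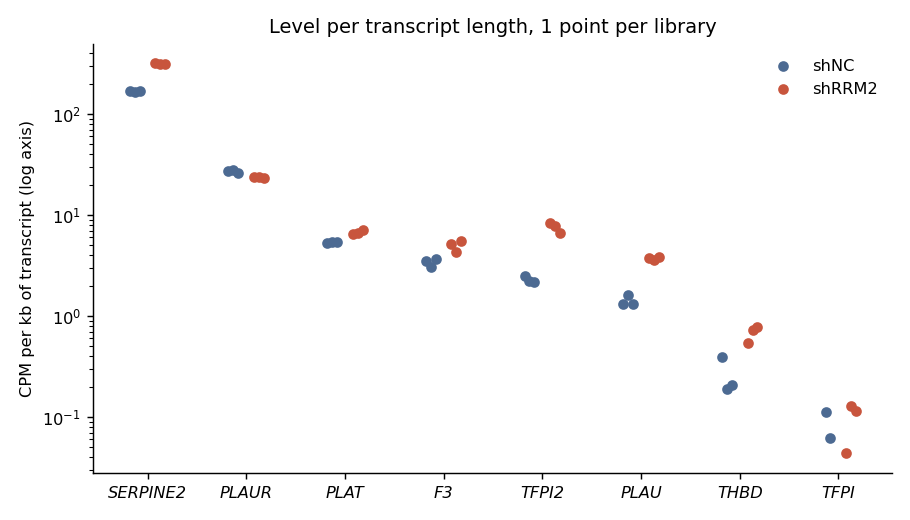
CPM per kb of transcript on a log axis for the 8 genes, in order of their shNC mean, with 1 point per library and the groups side by side. SERPINE2 lies near 167 in shNC and 315 in shRRM2, TFPI2 passes F3 in shRRM2, and the shNC library in which TFPI was at 0 has no point.

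**Figure D3:**
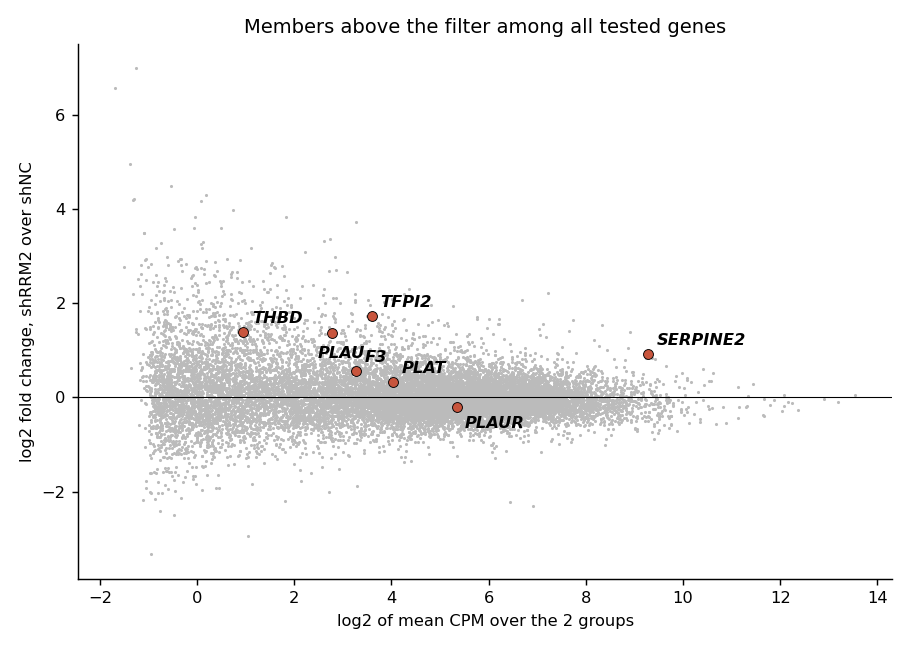
Log2 fold change of each of the 15866 tested genes (grey) against the log2 of its mean CPM, with the 7 tested members marked. SERPINE2, at 0.91, is the most abundant, PLAT and PLAUR lie inside the bulk of the genes, and TFPI2, PLAU and THBD lie in its upper part.

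Ratios of counts between members within a library do not depend on how libraries are scaled, but they are not per length, so only their change can be read. The ratio of PLAU to PLAUR counts was 0.0812, 0.0957 and 0.0836 in shNC and 0.260, 0.250 and 0.269 in shRRM2, a 3.00-fold rise of the ligand against its receptor. The ratio of PLAU to PLAT rose 2.11-fold and that of PLAU to SERPINE2 1.39-fold, each without overlap of the groups. The ratio of PLAU to SERPINE2 was 0.00817, 0.0103 and 0.00809 in shNC against 0.0123, 0.0118 and 0.0127 in shRRM2, so that shNC replicate 2 came closest to the other group.

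On the coagulation side the ratio of F3 to TFPI2 counts went from 1.34, 1.29 and 1.56 to 0.576, 0.517 and 0.776, which is 0.441 times the control ratio, without overlap. The ratio of F3 to THBD was 5.07, 8.89 and 9.79 in shNC and 5.36, 3.29 and 3.95 in shRRM2, and here the groups overlapped. In an exact permutation test (two-sided, 3 libraries against 3, 5 ratios), p was 0.1 for the 4 ratios without overlap, the smallest that this design allows, and 0.2 for F3 to THBD. Adjusted over the 5 by Benjamini-Hochberg, these permutation p-values were 0.125 and 0.2. None of the ratios could therefore pass a threshold of 0.05. Ratios to TFPI were not formed because of its library at 0.

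**Figure D4:**
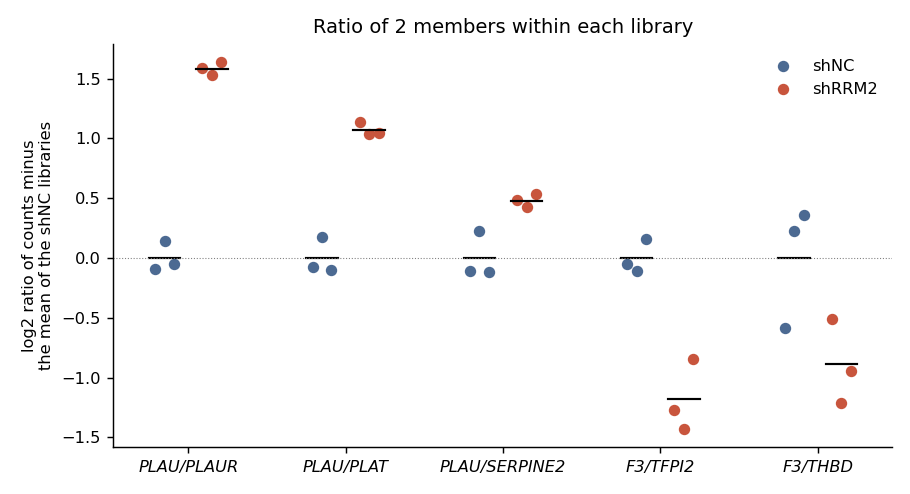
Log2 ratio of the counts of 2 members in each library, minus the mean of the shNC libraries, with group means as black lines. The shRRM2 libraries lie above the shNC libraries for the 3 ratios with PLAU on top, below them for F3 to TFPI2, and partly among them for F3 to THBD.

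RefSeq's table of promoter windows (GRCh38.p14, 250 bases before to 50 after a transcript start) gave the 8 windows used here, for PLAU and SERPINE2 (2 each), PLAUR, F3, TFPI and TFPI2. PLAT and THBD, which also rose, were not searched. No window was found for THBD, while PLAT was left out of the search, so its start region was not read for any motif. The windows are shown because the other genes that rose differ in what their start regions hold. The letters TGANTCA, which AP-1 factors are known to bind, were searched on both strands after the windows had been read. They occurred 2 times in the window of F3 and 1 time each in those of TFPI2 and PLAUR, and in no window of PLAU, SERPINE2 or TFPI. Matches are in capitals, 5′ to 3′ on the gene's strand, from minus-strand stretches chr1:94541890-94542009 for F3, chr7:93890774-93890863 for TFPI2 and chr19:43670290-43670379 for PLAUR.
F3: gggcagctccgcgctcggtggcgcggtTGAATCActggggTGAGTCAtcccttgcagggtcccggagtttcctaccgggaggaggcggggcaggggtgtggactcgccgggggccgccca
TFPI2: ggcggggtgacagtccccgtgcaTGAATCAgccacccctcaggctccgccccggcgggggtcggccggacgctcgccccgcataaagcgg
PLAUR: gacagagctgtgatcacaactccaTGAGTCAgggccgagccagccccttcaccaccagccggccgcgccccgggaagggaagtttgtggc
In F3 the 2 matches begin 223 and 210 bases before the start, in TFPI2 87 and in PLAUR 186. F3 and TFPI2 were called higher and PLAUR lower, a call that was lost without shNC replicate 2. Whether a match goes with a direction was not tested. Of all 35116 windows of this length, 7.71% held the letters. Of the 833 tested genes with such a window 40.3% were called higher and 20.05% lower, where 27.8% and 27.5% of the 11701 tested genes with any window were. That split is a description with no test, and a match is not a bound site.

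Both SERPINE2 windows lie inside the coordinates given for the gene, 1 of them downstream of the other. The downstream window is built from a repeated block and is shown for the spacing of its motifs. At a shift of 77 bases, 127 of 173 compared bases (73.4%) were identical. The letters TCACNTG are an E-box type that includes sites known for MITF and TFE factors. They occurred 6 times here, as TCACATG or TCACGTG. The CCAAT box (CCAAT) occurred 7 times, and the 2 motifs, counted on either strand, did not overlap. The stretch chr2:224031479-224031728 (minus strand, the 250 bases before the start) is printed 5′ to 3′ with both motifs in capitals.
SERPINE2: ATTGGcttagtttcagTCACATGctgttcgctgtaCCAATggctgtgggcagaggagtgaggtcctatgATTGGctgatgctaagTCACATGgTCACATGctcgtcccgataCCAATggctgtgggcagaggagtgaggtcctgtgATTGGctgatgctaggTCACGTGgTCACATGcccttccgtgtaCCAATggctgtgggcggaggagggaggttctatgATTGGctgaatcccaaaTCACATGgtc
The other SERPINE2 window held neither motif, the F3 window held TCACNTG 1 time (CAAGTGA on the gene's strand) and 1 PLAU window CCAAT 1 time. Among all windows 15.1% held TCACNTG, with any base at N, and 34.6% CCAAT at least once. Of tested genes with TCACNTG in a window 30.3% were called higher and 28.1% lower, and with CCAAT 28.7% and 27.6%, near the shares over all tested genes with a window. Which start the PANC-1 transcripts used was not measured by gene counts.

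The other genes of the plasminogen system moved mostly upward. With the 4 members in it, a list of 30 genes had 21 above the filter, of which 14 rose and 3 fell, with a median of 0.35 on the log2 scale, where 26.0% and 26.1% of all tested genes did. Without the 4 members, 11 of 17 rose and 2 fell. The clearance receptor LRP1, which takes up complexes of urokinase with its inhibitors, rose from 329 ± 4.49 to 571 ± 33.8 CPM (SD, n = 3 each; log2 fold change 0.80, adjusted p = 1.16e-18). VLDLR, a receptor of the same family, rose by 0.88 and the chaperone LRPAP1 by 0.37. Vitronectin (VTN), a matrix ligand of PLAUR, rose from 3.31 ± 0.720 to 7.28 ± 0.930 CPM (1.11, adjusted p = 2.91e-06).

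Proteins that dock plasminogen at the cell surface moved in both directions. S100A10 rose by 0.34 (adjusted p = 6.26e-08), while its partner ANXA2 fell by 0.14 (adjusted p = 0.000711) and ENO1, an enolase that also binds plasminogen, fell by 0.37 (adjusted p = 4.65e-14). PLGRKT, a plasminogen receptor, was at 4.62 ± 0.463 and 3.40 ± 0.600 CPM (SD, n = 3 each; log2 fold change −0.43, adjusted p = 0.0588), and it passed without shRRM2 replicate 2 (−0.56, adjusted p = 0.0271). Matriptase (ST14), which can activate pro-urokinase, rose by 0.35 and IGF2R, which binds PLAUR, by 0.13. Among further serpins, SERPINI1, which inhibits tissue-type activator, rose by 1.30 from 1.63 CPM, SERPINF2, the plasmin inhibitor of plasma, by 1.41 from 0.519 CPM, and SERPINB8 by 0.56, while SERPINB6 was at 0.04 (adjusted p = 0.396). Plasminogen (PLG) had 17 counts and SERPINB2, another inhibitor of urokinase, 2 counts over all 6 libraries. Processed copies of ANXA2 and ENO1 exist in the genome, and the handling of reads shared with them is not stated in the labels.

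Among genes around the start of coagulation, 2 receptors for its proteases rose. A list of 38 genes, 4 of them members, had 21 above the filter, with 12 that rose and 4 that fell and a median of 0.36, beside 26.0% and 26.1% of all tested genes. Without the members these counts were 9 and 4 of 18 and the median was 0.22, so that the share that fell was near that of all genes. F2R, the thrombin receptor PAR1, rose from 21.4 ± 0.936 to 37.7 ± 1.54 CPM (SD, n = 3 each; log2 fold change 0.82, adjusted p = 3.31e-11). F2RL1, the receptor PAR2 that the tissue factor complex can cleave, rose by 1.22 (adjusted p = 0.00151), with 15, 40 and 10 counts per shNC library and 52, 41 and 51 per shRRM2 library. F2RL2 and F2RL3 were below the filter.

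In the protein C pathway, which thrombomodulin serves, the cofactor and protein C itself passed the test and the receptor did not. Protein S (PROS1), the cofactor of protein C and of TFPI, rose from 24.3 ± 1.23 to 40.1 ± 3.19 CPM (SD, n = 3 each; 0.72, adjusted p = 6.28e-10), and protein C (PROC) rose by 0.79 from 2.46 CPM. Its receptor PROCR was at 25.2 ± 0.694 and 23.8 ± 2.30 CPM (−0.08, 95% interval −0.25 to 0.08, adjusted p = 0.41). GAS6, a relative of protein S, rose by 0.65, and ANXA5, which covers the phosphatidylserine that coagulation needs, by 0.45. P4HB, a disulfide isomerase linked to tissue factor activation, rose by 0.36 and ANO6, the scramblase that exposes phosphatidylserine, by 0.12. The ANO6 call was lost without shNC replicate 2 (0.10, adjusted p = 0.0694). PROZ was lower at −1.09 (adjusted p = 0.0147) on 10 to 38 counts per library, and without shRRM2 replicate 1 the value was −1.64. That call ended without shNC replicate 1 at −0.91 (adjusted p = 0.0843). It also ended without shRRM2 replicate 2 at −0.85 (adjusted p = 0.0696) and without shRRM2 replicate 3 at −0.87 (adjusted p = 0.0742).

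Genes that process or export clotting factors moved in both directions. GGCX, the carboxylase that vitamin K serves, rose by 0.31, VKORC1L1 was lower at −0.35 (adjusted p = 2.65e-07), and VKORC1 was at 0.08 (adjusted p = 0.147). The cargo receptor pair LMAN1 and MCFD2, which carries factors V and VIII from the endoplasmic reticulum, fell by 0.30 and 0.13. The plasma factors themselves differed in level. F9 and F11 were at 0 in all libraries, F7 had 1 count in total, F5 4 and F2 9. F12 was at 5.04 and 4.21 CPM in shNC and shRRM2 (−0.27, adjusted p = 0.213). F8 was at 13.1 and 12.1 CPM (−0.11, adjusted p = 0.448), and F10 had 16 to 40 counts per library (0.67, adjusted p = 0.139) and moved with single libraries, from 0.29 (adjusted p = 0.626) without shRRM2 replicate 1 to 0.99 (adjusted p = 0.0252) without shRRM2 replicate 2.

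**Figure D5:**
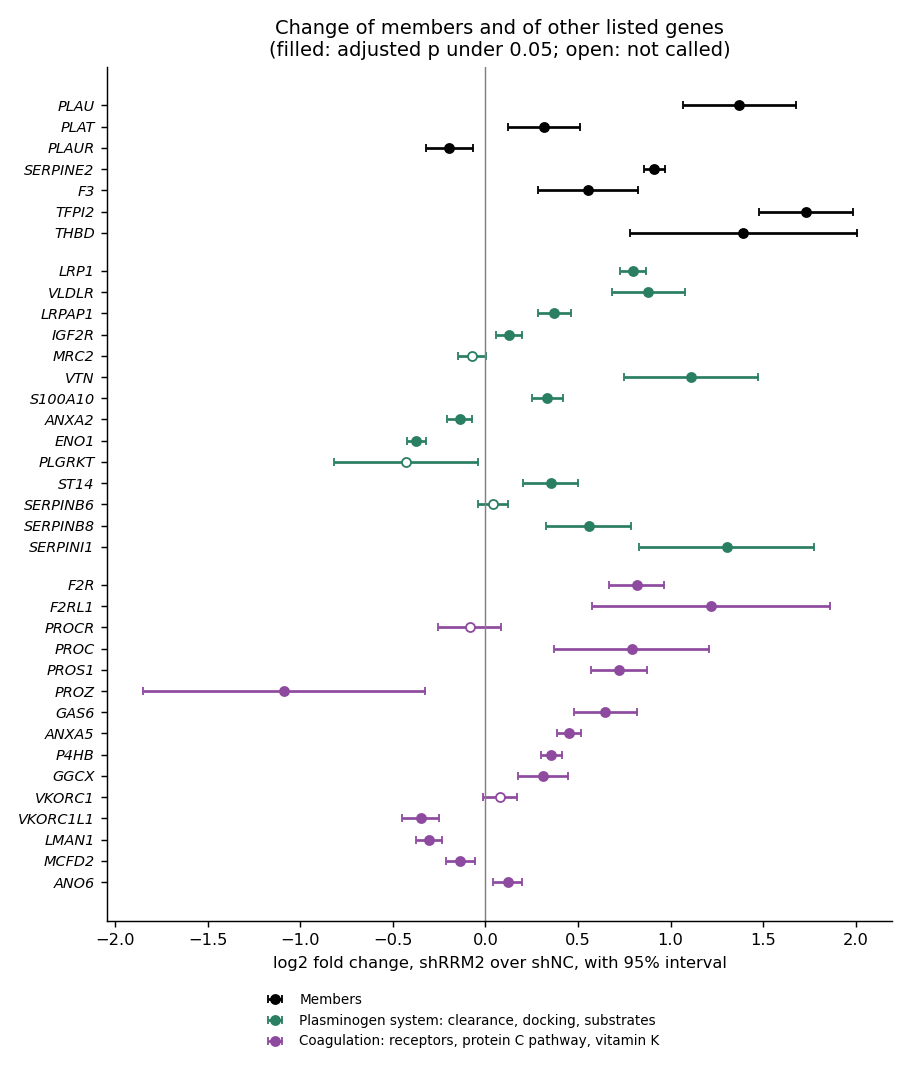
Log2 fold change with its 95% interval for the 7 tested members (black), 14 genes of the plasminogen list (green) and 15 of the coagulation list (purple); filled points passed the adjusted threshold of 0.05. TFPI2 at 1.73 has the highest value, PROZ at −1.09 the lowest, and the interval of THBD is the widest of the members.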

How the data were processed

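The authors deposited whole-number read counts per NCBI Gene ID. The reads went through fastp 0.23.4 and featureCounts on hg38, per the submitters' processing notes. Aligner, annotation version, strand setting and treatment of shared reads: not given in the sources used here. Gene IDs were matched to RefSeq symbols (40120 of 42902); unmatched IDs stayed in the fit. The files' columns say si-RRM2 where the labels say shRRM2. Counts were filtered with filterByExpr (15866 genes kept), scaled with TMM and compared by edgeR's quasi-likelihood test (edgeR 4.0.16, R 4.3.3; robust, group as the only term, two-sided). An SE was obtained from each fold change and its F statistic. The test was also run on simulated counts with far fewer changed genes than were called here. That check therefore does not cover a response as broad as this one.

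The members and lists were chosen with earlier results of these data known. All members are named; genes of the 2 lists are counted in full and named in part, and some list genes are not reported here. Alternatives were library size alone, RLE factors, no filter, 1 CPM in 3 libraries, DESeq2 1.42.0, limma-voom (limma 3.58.1), a replicate block, each library left out, and an adjusted p of 0.01. No other gene overlapping a member's coordinates had more than 11 counts in a library.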

Additional observations from a re-analysis of the deposited data

How the results depend on the processing

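The 7 members above the filter were followed under 14 alternatives each. The adjusted p of 0.01 is the main fit read at a stricter threshold, so its directions could not differ. In 97 of these 98 values the direction and the call held, and the exception was PLAUR without shNC replicate 2, given above. With 1 library left out, 6 members were called higher each time and 0 to 1 lower. The lists kept 14 plasminogen genes called higher under each alternative and 2 to 4 lower, and 11 to 13 coagulation genes higher and 3 to 4 lower. Over all tested genes (14642 to 26730 by setting), 3386 to 4619 were called higher and 3286 to 4165 lower. With 1 library left out these were 3754 to 4031 and 3736 to 3944, so the response stayed broad throughout. With library size alone, VKORC1 passed (0.12, adjusted p = 0.0312). Same-numbered libraries of the 2 groups did not deviate together (correlations of −0.01, −0.02 and −0.01 over 13982 genes), so the numbers were not taken as pairs; with the replicate number as a block, 6 members were called higher and 1 lower, and RRM2 was at −2.31. Without the filter, 0 of the 26 listed genes below it were called, and 7 of these were at 0 in all libraries. The lowest levels, THBD and TFPI, are limited by depth.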

Other observations

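For each tested member, the genes with the most similar profile were sought among 10221 or 10222 genes with a mean of at least 10 CPM, by the distance between mean-centred log2 CPM over the 6 libraries. Nearest to SERPINE2 was ALCAM, an adhesion molecule (distance 0.0212, log2 fold change 0.92), then ATP2B4 and KCNJ2. Nearest to PLAU were EDIL3 (0.142), FHDC1 and CAV1, the caveolar coat protein, with log2 fold changes of 1.32, 1.33 and 1.27. Nearest to TFPI2 were TSPAN1 (0.155), LINC00707 and the membrane mucin MUC13. F3 was closest to SPRYD4 (0.156), PLAT to PACSIN2 (0.0401) and PLAUR to MAZ (0.0395). THBD was farthest from its nearest gene, EBI3, at 0.428. The 6 libraries fall into 2 groups, so genes with a like change between them lie close.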
